A study of Mus musculus with 2 samples.

Results

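The cytotoxic lymphocyte genes Gzma, Gzmb, Prf1, Nkg7, Ccl5, Klrd1, Klrk1 and Ncr1 were followed through the cells of mouse bone marrow. They were chosen by name, and they are 8 of the 13211 genes listed in the count tables of the series. All 8 were listed for Col1a1fspKO marrow and 7 for WT marrow, where Prf1 was not listed. The study compared Col1a1fspKO mice (Fsp1-Cre;Col1a1flox/flox) with WT littermates (Cre-negative;Col1a1flox/flox), both 2 months old and untreated, by single-cell RNA sequencing (sc-RNA-seq). Both groups carried the floxed Col1a1 alleles, so they differed in the Cre transgene, which is driven by the Fsp1 (S100a4) promoter and deletes the loxP-flanked exons of Col1a1, the gene of the type I collagen α1 chain. Marrow was flushed from femur and tibia, pooled from 2 mice per group, sorted for live cells and captured in 10x Genomics droplets as 1 library per group. With 1 library per genotype the spread between animals was not measured and no test between genotypes was possible. The intervals given here are exact 95% intervals for counting error only.

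Cytotoxic lymphocytes, which are natural killer (NK) cells and killer T cells, carry granules filled with granzymes, serine proteases that trigger death of a target cell, and perforin, which forms pores in the target's membrane. NK cells decide to release them by summing signals from activating and inhibitory receptors that read ligands on other cells. Bone marrow is where NK cells develop, and it also houses memory T cells. Of the genes followed, Gzma and Gzmb encode granzymes A and B, Prf1 perforin, and Nkg7 a membrane protein of the cytotoxic granule. Ccl5 encodes the chemokine RANTES. Klrd1 encodes CD94, a partner chain of NKG2 receptors other than NKG2D. Klrk1 encodes the activating receptor NKG2D, and Ncr1 the activating receptor NKp46.

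The 8 genes are protein-coding genes, and in GENCODE M21 (GRCm38, the assembly also called mm10, which the submitters' processing notes name) none overlaps another annotated gene. Klrd1 (chr6:129591782-129598775, plus strand) and Klrk1 (chr6:129610323-129623864, minus strand) lie beside each other in the NK receptor gene complex. Nkg7 (chr7:43437073-43438249, plus) and Ncr1 (chr7:4337724-4345164, plus) are both on chromosome 7. Gzma is at chr13:113093825-113100981 (minus), Gzmb at chr14:56258838-56262260 (minus), Prf1 at chr10:61297833-61304680 (plus) and Ccl5 at chr11:83525778-83530518 (minus).

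RefSeq promoter sequences on GRCm38.p6 were at hand for 6 of the 8 genes, and Ccl5 and Klrd1 had no entry. The 250 bases before the RefSeq transcription start, which can differ from the GENCODE start, are shown for 4 genes. The UMIs of Gzma and Ncr1 came almost wholly from lymphocytes in these data, while Nkg7 and Klrk1 were also counted in myeloid cells. Each runs 5′ to 3′ on the gene's own strand, and capitals mark matches on either strand to TGTGGT, the core motif of RUNX factors, or to GGTGTGA, the core of T-box factors such as T-bet and Eomes. The windows are chr13:113100982-113101231 for Gzma, chr7:4337474-4337723 for Ncr1, chr7:43436888-43437137 for Nkg7 and chr6:129623865-129624114 for Klrk1.
Gzma: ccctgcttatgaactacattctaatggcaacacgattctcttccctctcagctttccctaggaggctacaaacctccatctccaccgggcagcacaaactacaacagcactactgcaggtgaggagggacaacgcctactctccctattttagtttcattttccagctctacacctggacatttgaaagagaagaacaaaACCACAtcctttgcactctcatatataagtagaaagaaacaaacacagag
Ncr1: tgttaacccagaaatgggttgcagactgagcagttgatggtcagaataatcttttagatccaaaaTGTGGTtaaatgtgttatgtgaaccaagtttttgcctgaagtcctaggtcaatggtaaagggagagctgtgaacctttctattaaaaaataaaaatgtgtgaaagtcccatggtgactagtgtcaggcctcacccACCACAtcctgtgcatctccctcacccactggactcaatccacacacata
Nkg7: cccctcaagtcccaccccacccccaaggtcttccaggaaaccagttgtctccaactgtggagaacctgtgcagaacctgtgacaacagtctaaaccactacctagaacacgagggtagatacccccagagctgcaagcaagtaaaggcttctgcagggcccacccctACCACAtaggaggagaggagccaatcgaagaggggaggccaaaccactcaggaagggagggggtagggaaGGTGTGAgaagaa
Klrk1: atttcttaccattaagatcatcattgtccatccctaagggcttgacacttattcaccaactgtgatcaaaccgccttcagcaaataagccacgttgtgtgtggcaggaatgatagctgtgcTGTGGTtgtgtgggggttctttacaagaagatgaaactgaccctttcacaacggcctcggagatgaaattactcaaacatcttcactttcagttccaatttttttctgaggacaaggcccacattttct
A TGTGGT match was found in all 6 windows (Gzmb and Prf1 included), against 14% of the 32851 RefSeq promoter windows of the same length. A GGTGTGA match was found in 1 of the 6, that of Nkg7, against 3.33% of all windows. The Nkg7 window ends at chr7:43437137, past the GENCODE start of the gene at chr7:43437073. The match, at position 238 of the window, thus lies inside the gene as GENCODE places it. The myeloid PU.1 motif GAGGAAGT was found in none of the 6 and in 2.44% of all windows. These are matches of letters, and binding was not measured.

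The Col1a1fspKO table held 1309 cells with a median of 4954 UMIs (unique molecules counted; a level in CPM is UMIs per 1000000 UMIs of the same cells), while WT had 1169 cells with a median of 5534. The libraries shared 2 cell barcodes. Cells were clustered without the 8 genes, which left 15 clusters, and cluster 10 was the T and NK cell cluster (T/NK cells, 89 cells). It was led by AW112010, Gimap4, Ms4a4b, Cd3g and Il2rb. Col1a1fspKO marrow contributed 58 cells to it, a share of 4.43% (interval 3.38 to 5.69%), and WT marrow 31 cells, a share of 2.65% (1.81 to 3.74%). The difference was 1.78 percentage points (Newcombe interval 0.310 to 3.25). Col1a1 itself gave 3 UMIs in Col1a1fspKO and 0 in WT, which checks nothing, since the tags read the far end of the transcript and not the deleted exons. S100a4, whose promoter drives the Cre, had a UMI in 13 of 58 Col1a1fspKO and 4 of 31 WT T/NK cells.

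T/NK cells split into 2 sub-clusters, again without the 8 genes. The 36 NK-like cells (25 Col1a1fspKO, 11 WT) were led, against all cells outside T/NK, by genes that include the NK receptor genes Klre1, Klra3, Klrc1 and Klrb1c. The other 53 cells (33 Col1a1fspKO, 20 WT) are called Cd3-high cells: 50 of them had a UMI of the CD3 chain genes Cd3e or Cd3g, against 14 of 36 NK-like cells. They were given no cell type name. Cd3g and Cd3e led them against cells outside T/NK, but so did Klrc1, at 336 CPM against 297 CPM in NK-like cells. The genes that led them against NK-like cells were neutrophil genes such as Lcn2, Ngp and Camp, and 1 cell held 140 of their 265 Lcn2 UMIs. Of them, 37 also had a UMI of an NK marker gene. NK-like cells were deeper (median 6249.5 UMIs against 3633) and were led against Cd3-high cells by cell cycle genes: Top2a had a UMI in 12 of 36 NK-like and 0 of 53 Cd3-high cells. The split therefore runs by depth and cell cycle as well as by receptor genes, and the part of these in the differences below was not tested.

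**Figure D1:**
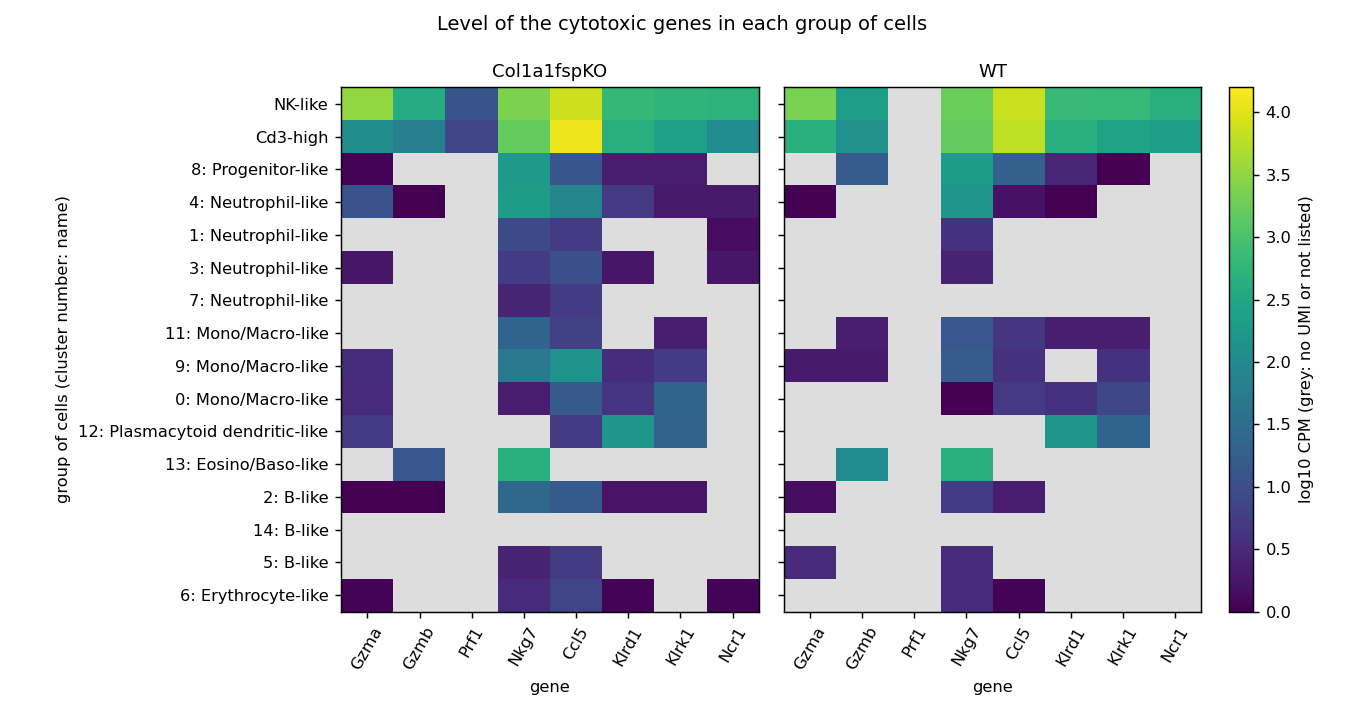
Level of each gene as log10 of CPM (colour scale) in NK-like cells, Cd3-high cells and the 14 other clusters, for each library; grey marks no UMI or a gene that was not listed. The top pair of lines, the T/NK cells, is the brightest for every gene, and Nkg7 is also seen in Progenitor-like cluster 8, Neutrophil-like cluster 4 and Eosino/Baso-like cluster 13, and Klrd1 in the Plasmacytoid dendritic-like cluster 12.

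The 8 genes together gave 5282 UMIs in Col1a1fspKO and 2489 in WT. Of these, 84.3% in Col1a1fspKO and 74.8% in WT were in T/NK cells, the plot of levels by cluster shows, and most of the rest were Nkg7 UMIs in myeloid cells. Of 89 T/NK cells, 77 had UMIs of at least 2 of the genes, against 42 of 2389 cells outside. At least 5 of the genes were found in 41 of 89 T/NK cells and in 1 cell outside. NK-like cells carried a median of 6 genes in both libraries, and Cd3-high cells a median of 3 in Col1a1fspKO and 4 in WT. Cells outside T/NK had a median of 0.

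**Figure D2:**
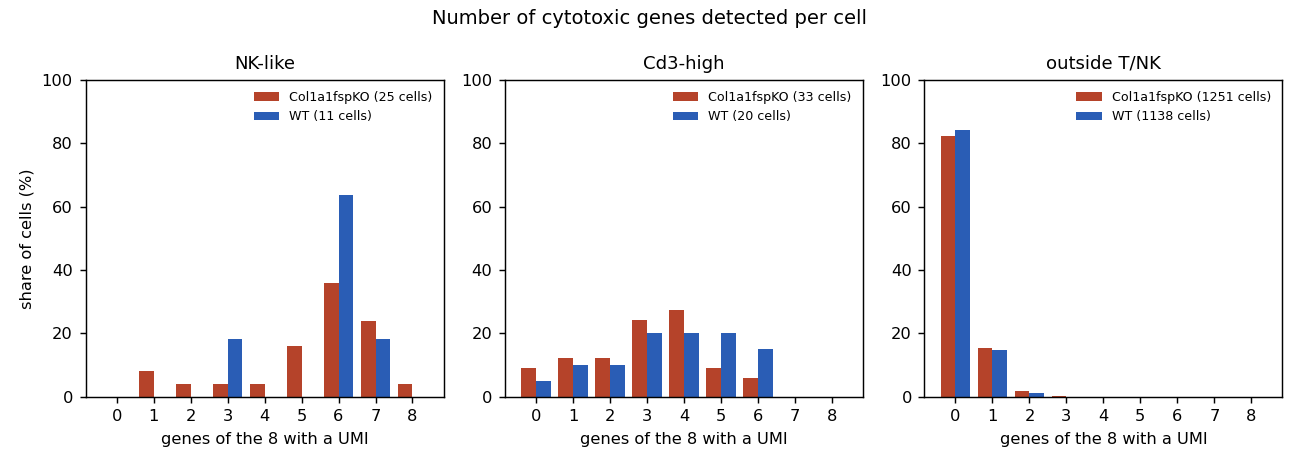
Share of cells (%, vertical axis) by the number of the 8 genes with at least 1 UMI (horizontal axis), for NK-like, Cd3-high and all other cells of each library. NK-like cells peak at 6 genes in both libraries, Cd3-high cells at 4 genes in Col1a1fspKO and at 3 to 5 in WT, and most other cells have none.

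Gzma, the granzyme A gene, was nearly confined to T/NK cells, with 96.2% of its UMIs there in Col1a1fspKO and 97.7% in WT. In NK-like cells it had 537 UMIs in 17 of 25 Col1a1fspKO cells (3346 CPM, interval 3069 to 3641) and 170 UMIs in 9 of 11 WT cells (2260 CPM, interval 1933 to 2626). The median was 13 UMIs per NK-like cell in Col1a1fspKO and 7 in WT. In Cd3-high cells it had 15 UMIs in 3 of 33 Col1a1fspKO cells and 43 UMIs in 4 of 20 WT cells. Its level in NK-like cells was 29.5 times that in Cd3-high cells in Col1a1fspKO (interval 17.7 to 53.0) and 4.80 times in WT (3.42 to 6.87). Single cells weighed heavily: 1 WT NK-like cell held 95 UMIs, 1 Col1a1fspKO NK-like cell 113, and 2 WT Cd3-high cells 33 and 6 of the 43 UMIs there. Those 2 cells had no UMI of Cd3e or Cd3g, and a finer split described below left them out of its 3 Cd3-bearing sub-clusters. With its largest sub-cluster set against these 3, the ratio was 55.6 in WT (21.3 to 206) and 36.7 in Col1a1fspKO (22.05 to 66.02). The WT value rests on 4 Gzma UMIs in 2 cells of the 3 sub-clusters, and this alternative was chosen after the data were seen. Of the 33 T/NK cells with Gzma, all 33 also had Nkg7, 32 Ccl5, 30 Klrd1, 30 Klrk1 and 27 Ncr1, and 16 had Gzmb.

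Gzmb, the granzyme B gene, was found in fewer cells and was spread differently between the libraries. In T/NK cells it had 72 UMIs in 15 of 58 Col1a1fspKO cells and 29 UMIs in 8 of 31 WT cells. NK-like cells had 63 UMIs in 11 of 25 cells in Col1a1fspKO, of which 1 cell held 30, and 17 UMIs in 4 of 11 cells in WT. The NK-like level was 5.76 times the Cd3-high level in Col1a1fspKO (interval 2.85 to 13.2) and 1.72 times in WT (0.774 to 3.94), an interval that holds 1. Outside T/NK cells Gzmb had 3 UMIs in Col1a1fspKO and 31 in WT, which is 51.7% of its WT UMIs. A pair of WT cells held most of these. One, in Eosino/Baso-like cluster 13, had 11 Gzmb UMIs and 80 UMIs of eosinophil and basophil marker genes, where the median of its cluster was 458. The other, in Progenitor-like cluster 8, had 17 Gzmb UMIs and 40 of these marker UMIs, where the median of its cluster was 1. Neither had a UMI of a T or NK marker gene.

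Prf1, the perforin gene, was at the edge of detection. It had 3 UMIs in all, in 3 Col1a1fspKO T/NK cells (10.3 CPM, interval 2.12 to 29.97), of which 2 were NK-like and 1 Cd3-high. All 3 cells also had Gzma, Nkg7, Klrd1 and Ccl5. For WT T/NK cells, where the gene was not listed, the interval of 0 UMIs reached 22.2 CPM, so a difference between the genotypes was not detectable at this depth.

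Nkg7, the granule membrane protein gene, was found in nearly every T/NK cell. It had a UMI in all 25 Col1a1fspKO and all 11 WT NK-like cells, and in 29 of 33 Col1a1fspKO and 19 of 20 WT Cd3-high cells. Its level was 2343 CPM (interval 2112 to 2592) in NK-like and 1628 CPM (1418 to 1861) in Cd3-high cells of Col1a1fspKO. In WT it was 1768 CPM (1480 to 2095) and 1545 CPM (1300 to 1822), and these intervals overlap.

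Nkg7 was also the gene of the 8 that reached furthest into the myeloid lineage. Only 55.1% of its UMIs in Col1a1fspKO and 35.0% in WT were in T/NK cells. Eosino/Baso-like cells had it in 7 of 9 Col1a1fspKO cells (463 CPM) and 13 of 18 WT cells (442 CPM). Progenitor-like cluster 8, led by genes that include the stem and progenitor gene Cd34 and the granule gene Mpo, had it in 37 of 76 Col1a1fspKO cells (48.7%, interval 37.0 to 60.4%) and 39 of 76 WT cells (51.3%, interval 39.6 to 63.0%). Neutrophil-like cluster 4, led by Fcnb and Ms4a3, genes of early granule-forming neutrophils, had it in 40.4% of Col1a1fspKO cells (40 of 99) and 40.5% of WT cells (53 of 131). In the other Neutrophil-like clusters, which carry the later genes Ltf, Mmp8 and Retnlg, the share was at most 3.85%. Plasmacytoid dendritic-like cells had 0 of 42 and 0 of 30. Erythrocyte-like cells, which should lack the gene and have a median of 9474.5 UMIs, had it in 3 of 84 and 3 of 78 cells. This share is taken as background, and its source was not tested. After each cell was thinned to 2500 UMIs the share was 22.4% and 28.9% in cluster 8, 21.2% and 21.4% in cluster 4 and 0 in Erythrocyte-like cells. Over all cells outside T/NK, Nkg7 in Col1a1fspKO was 0.959 times WT (interval 0.845 to 1.09), but the ratio differed by group. It was 0.840 (0.683 to 1.03) in cluster 8, 1.22 (1.002 to 1.496) in cluster 4 and 1.05 (0.650 to 1.66) in Eosino/Baso-like cells. In Mono/Macro-like cells it was 2.57 (1.39 to 5.02), on 39 against 15 UMIs, and in B-like cells 3.87 (1.80 to 9.21), on 32 against 9 UMIs.

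**Figure D3:**
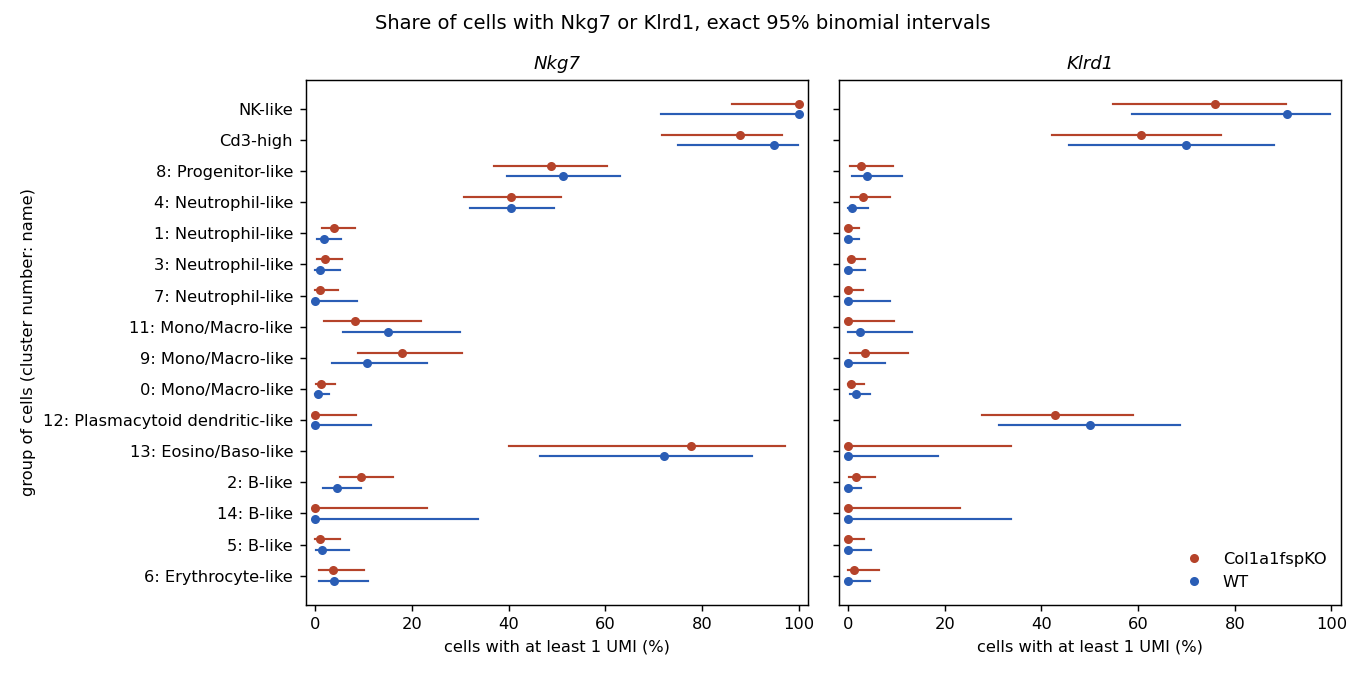
Share of cells with at least 1 UMI (%, horizontal axis) of Nkg7 (left) and Klrd1 (right) in each group of cells, with exact binomial intervals, for Col1a1fspKO and WT. Nkg7 is found in 48.7% and 51.3% of cluster 8 and in 40.4% and 40.5% of cluster 4 but in at most 3.85% of neutrophil clusters 1, 3 and 7, and Klrd1 outside T/NK cells stands out only in the Plasmacytoid dendritic-like cluster.

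Ccl5, the chemokine gene, was carried by 48 of 58 Col1a1fspKO and 25 of 31 WT T/NK cells. It did not follow the granzymes: in Col1a1fspKO its level was higher in Cd3-high cells (12239 CPM, interval 11650 to 12851) than in NK-like cells (7695 CPM, interval 7272 to 8137). In WT the NK-like cells were slightly higher, at 7258 CPM (6662 to 7893) against 6332 CPM (5827 to 6870). The NK-like level was thus 0.629 times the Cd3-high level in Col1a1fspKO (0.583 to 0.678) and 1.15 times in WT (1.02 to 1.29). The highest cells held 226 UMIs in Col1a1fspKO and 173 in WT, both NK-like. Cells outside T/NK held 234 Ccl5 UMIs in the Col1a1fspKO library and 36 in the WT library. A Col1a1fspKO cell of Mono/Macro-like cluster 9 held 76 of these, one of Neutrophil-like cluster 4 held 75 and one of B-like cluster 2 held 16, and a WT cell of cluster 8 held 18. The cluster 4 cell also had 11 Gzma and 7 Nkg7 UMIs and 16 UMIs of T and NK marker genes, and the cluster 2 cell 15 of these marker UMIs. None of the 4 was called a doublet. Erythrocyte-like cells had Ccl5 in 7 of 84 Col1a1fspKO and 1 of 78 WT cells, 7 against 1 UMI, a ratio of 6.88 whose interval of 0.884 to 310 holds 1. The shares outside T/NK cells that are no higher than these are not read as expression.

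Klrd1, the CD94 gene, was found in 19 of 25 Col1a1fspKO (636 CPM) and 10 of 11 WT NK-like cells (691 CPM), and in 20 of 33 (447 CPM) and 14 of 20 Cd3-high cells (471 CPM). The ratio of NK-like to Cd3-high cells was alike in both libraries, at 1.42 (interval 1.02 to 1.99) and 1.47 (0.961 to 2.25). Klrd1 had a further site in the Plasmacytoid dendritic-like cluster, whose cells make type I interferon. There it had 32 UMIs in 18 of 42 Col1a1fspKO cells (164 CPM, interval 112 to 232) and 22 UMIs in 15 of 30 WT cells (167 CPM, interval 104 to 252). Thinned to 2500 UMIs, the shares were 28.6% and 40.0%. Erythrocyte-like cells had Klrd1 in 1 of 84 and 0 of 78 cells. Klrk1 had 4 and 3 UMIs in the plasmacytoid cluster, and Ncr1 had none there.

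Klrk1, the NKG2D gene, was found in 20 of 25 Col1a1fspKO (561 CPM) and 9 of 11 WT NK-like cells (651 CPM), and in 13 of 33 (258 CPM) and 10 of 20 Cd3-high cells (274 CPM). The NK-like level was 2.18 times the Cd3-high level in Col1a1fspKO (interval 1.45 to 3.33) and 2.38 times in WT (1.44 to 4.02). Outside T/NK cells it was counted mainly in Mono/Macro-like cluster 0, with 21 UMIs in 14 of 173 Col1a1fspKO cells and 8 UMIs in 5 of 189 WT cells, against 0 of 84 and 0 of 78 Erythrocyte-like cells. Thinned to 2500 UMIs, the cluster 0 shares were 5.202% and 1.59%.

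Ncr1, the NKp46 gene and a defining NK gene, was also nearly confined to T/NK cells, which held all 53 of its UMIs in WT and 98 of 103 in Col1a1fspKO. It was found in 18 of 25 Col1a1fspKO NK-like cells (523 CPM) and 9 of 11 in WT (425 CPM). In Cd3-high cells it was found in 4 of 33 (106 CPM) and 6 of 20 cells (230 CPM). The ratio of NK-like to Cd3-high cells was 4.94 in Col1a1fspKO (interval 2.78 to 9.42) and 1.85 in WT (1.03 to 3.37).

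**Figure D4:**
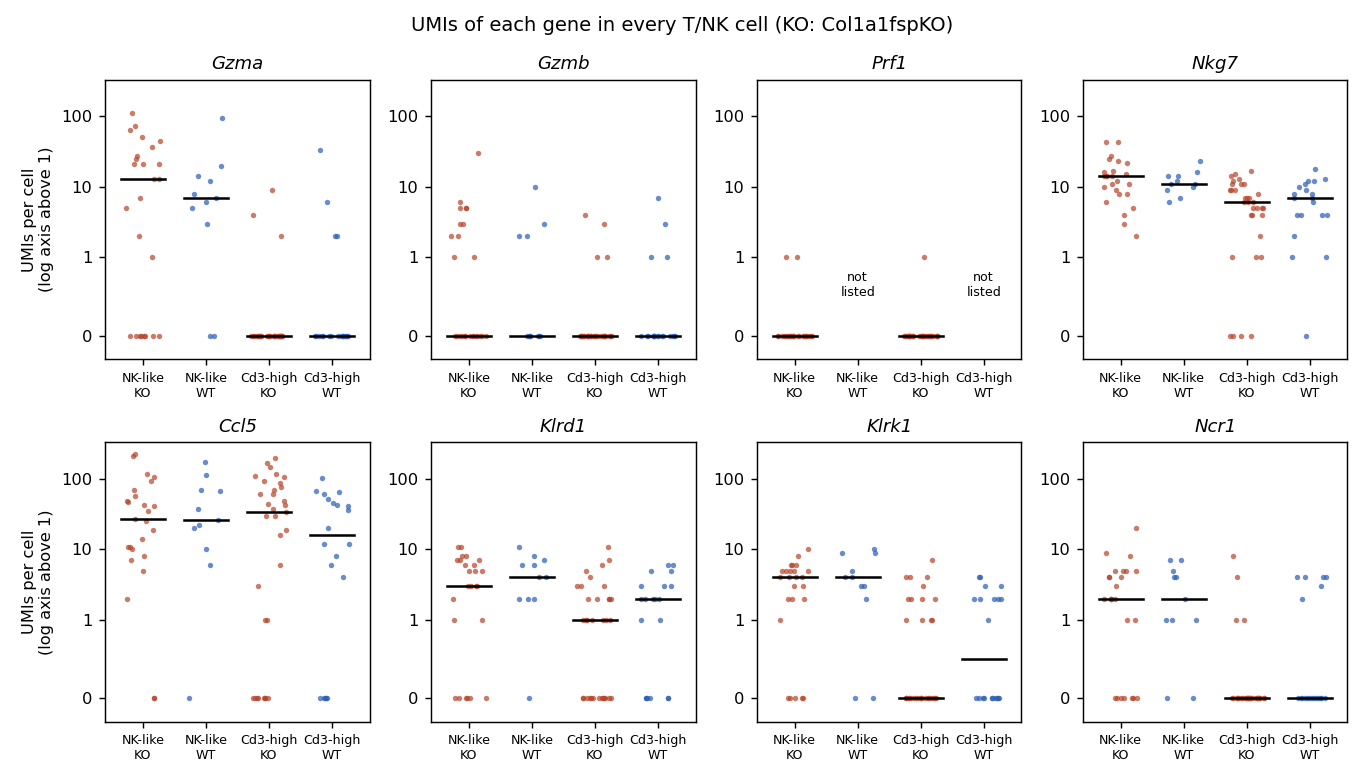
UMIs per cell (vertical axis, a log axis above 1) of each gene in every NK-like and Cd3-high cell of the Col1a1fspKO (KO) and WT libraries; each point is a cell and each bar a median. Gzma medians are 13 and 7 in NK-like cells and 0 in Cd3-high cells, Nkg7 is above 0 in all 36 NK-like cells, and Ccl5 reaches 226 UMIs in 1 cell.

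Taking NK-like against Cd3-high cells as a whole, 2 of the 7 genes with at least 20 UMIs in these cells, Gzma and Klrk1, were at least 2-fold higher in NK-like cells of both libraries, where 6.42% of 2556 genes were. None of the 7 was 2-fold lower in both, where 2.23% of genes were. In Col1a1fspKO the median log2 ratio was 1.12 over the 7 genes and 0.13 over all genes tested. In WT the contrast was smaller, and the middle of the 7 ratios was that of Gzmb, 1.72 times. Ncr1 and Gzmb passed 2-fold in Col1a1fspKO but not in WT. Both passed it in WT too with the largest sub-cluster of the finer split set against its 3 Cd3-bearing ones. This alternative was also chosen after the data were seen. The ratios were 2.99 (1.55 to 6.07) for Ncr1 and 2.29 (0.896 to 6.30) for Gzmb, whose interval includes no difference. With cells split by marker UMIs instead, Gzmb was lower in the NK cells of WT and nearly equal in Col1a1fspKO, as the last section gives.

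A finer split of the T/NK cells into 5 sub-clusters showed where the genes were carried among the Cd3-bearing cells. The largest, with 31 cells, 27 of them with Ncr1, held 706 of the 765 Gzma UMIs of T/NK cells and 70 of the 101 Gzmb UMIs. A sub-cluster of 20 cells had Cd3g in 19, Ccl5 in 16 and Klrd1 in 12, but Gzma in 2 and Ncr1 in 1. Another of 19 cells had Cd3g in all 19 together with the NK receptor gene Klrb1c in 13, Ccl5 in 17, Klrk1 in 11 and Ncr1 in 5. A sub-cluster of 16 cells carried Cd8b1 in 8, Lef1 in 11 and Tcf7 in 12, genes of naive and memory CD8 T cells. It had no UMI of Gzma or Gzmb, while Nkg7 was found in 14 of the 16 and Ccl5 in 8. The last held 3 cells, all with Gzma. Its 2 WT cells, Cd3-high in the coarser split, carried 33 and 6 Gzma UMIs, had Klrb1c, Eomes and Ncr1 and had no UMI of Cd3e or Cd3g, while its Col1a1fspKO cell, NK-like in the coarser split, had 1 Gzma UMI. The 3 sub-clusters of 20, 19 and 16 cells thus held 15 Gzma UMIs in 3 of 35 Col1a1fspKO cells and 4 in 2 of 20 WT cells.

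The study compared the marrow of the genotypes, and for these genes the comparison can be read over all cells or per T/NK cell. Over all cells, Ccl5 in Col1a1fspKO was 2.65 times WT (interval 2.48 to 2.84) and Gzma 2.63 times (2.24 to 3.08). Ncr1 was 1.94 times WT (1.38 to 2.75), Klrk1 1.78 times (1.37 to 2.34) and Klrd1 1.66 times (1.33 to 2.09). Nkg7 was 1.37 times (1.25 to 1.5005), and Gzmb was 1.25 times with an interval of 0.876 to 1.78 that holds 1. Of the 7 genes with at least 50 UMIs, 5 were thus past 1.5-fold higher in Col1a1fspKO, where 3% of 9725 genes were, and 0 were past 1.5-fold lower, where 2.93% of genes were. The 7 genes share their source cells, so they are not 5 separate observations. T/NK cells held 3.38% of all UMIs in Col1a1fspKO and 1.93% in WT, 1.75 times as much.

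Within T/NK cells the ratios were smaller than over all cells, except for Gzmb (1.41 against 1.25). The receptor genes stood near 1: Klrd1 was 0.965 times WT (interval 0.744 to 1.26), Klrk1 0.954 times (0.709 to 1.29) and Ncr1 1.05 times (0.746 to 1.499). Gzma was 1.48 times WT (1.26 to 1.74), Ccl5 1.44 times (1.35 to 1.55), Gzmb 1.41 times (0.907 to 2.26) and Nkg7 1.23 times (1.06 to 1.42). Of the 7 genes, 0 were past 1.5-fold higher, where 16.6% of 2556 genes with at least 20 UMIs in these cells were, and 0 were past 1.5-fold lower, where 8.18% were. Without the highest Gzma cell of each library, an alternative chosen after the data were seen, the Gzma ratio was 2.11 (1.72 to 2.61), and without the highest Ccl5 cell of each the Ccl5 ratio was 1.54 (1.43 to 1.66), so that the count past 1.5-fold higher goes from 0 to 2. The 8 genes summed were 1.36 times WT in T/NK cells (1.29 to 1.44), and Ccl5 gave most of these UMIs.

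The genotype ratios of Gzma and Ccl5 were not the same in the 2 sub-clusters. Gzma in NK-like cells was 1.48 times WT (1.24 to 1.77), and in Cd3-high cells 0.241 times (0.124 to 0.443). Ccl5 in NK-like cells was 1.06 times WT (0.958 to 1.17), and in Cd3-high cells 1.93 times (1.76 to 2.13). The Gzma value in Cd3-high cells rests on 15 against 43 UMIs, and without the highest cell of each library it was 0.386 with an interval of 0.115 to 1.17. Its direction also turned with the split: over the 3 Cd3-bearing sub-clusters of the finer split, an alternative chosen after the data were seen, Gzma in Col1a1fspKO was 2.19 times WT (0.699 to 9.08), while Ccl5 was 1.83 times (1.66 to 2.02). Ncr1 in Cd3-high cells was also lower in Col1a1fspKO, at 0.461 times WT (0.217 to 0.9503), or 14 against 21 UMIs, and in the 3 Cd3-bearing sub-clusters at 0.585 times with an interval of 0.258 to 1.32 that holds 1. These ratios compare 1 library with 1 library, and differences between them were not tested.

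**Figure D5:**
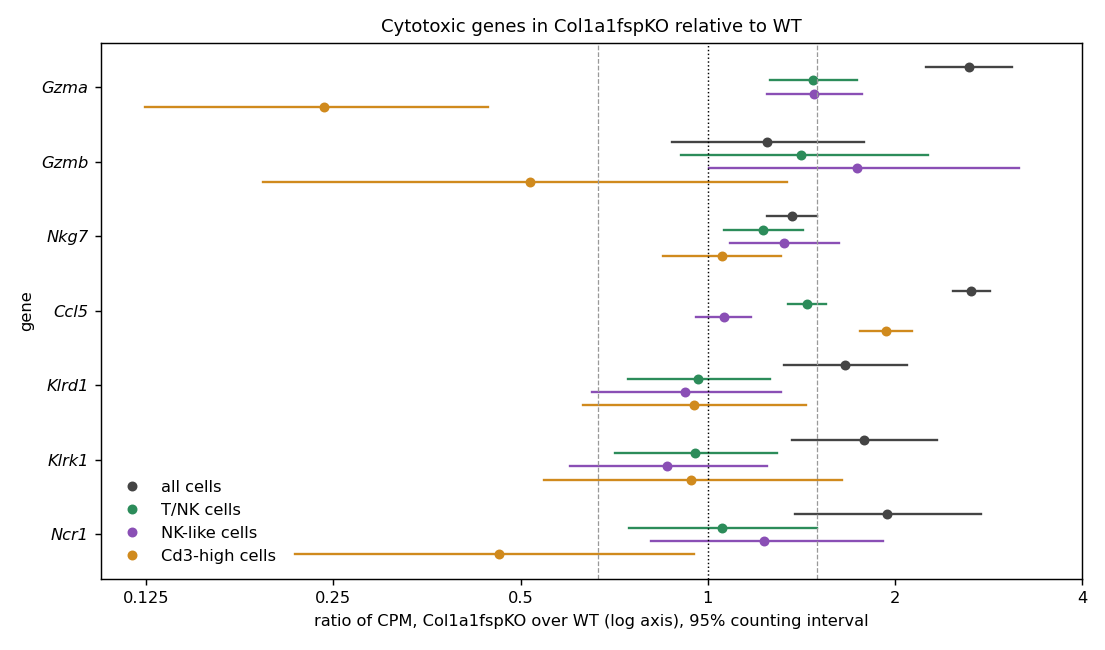
Ratio of CPM in Col1a1fspKO over WT (log axis) for the 7 genes listed in both libraries, with 95% counting intervals, in all cells, T/NK cells, NK-like cells and Cd3-high cells; dashed lines mark 1.5-fold. All-cell ratios lie between 1.25 and 2.65, Klrd1, Klrk1 and Ncr1 stand near 1 within T/NK cells, and Gzma is above 1 in NK-like but at 0.241 in Cd3-high cells, a value that rises to 2.19 over the 3 Cd3-bearing sub-clusters of the finer split.

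The wider killing machinery was read from a list of 62 genes, of which 59 were listed in these tables. Of the 59, 35 had their highest level in the T/NK cluster, and of the 47 that were not NK markers used to name cells, 23 had, where 6.72% of 13202 genes had. Over the 59, this held for 13 of 16 receptors, but most of these are NK markers used to name cells. Of the receptors that are not, Klrg1 and Cd226 were highest in the T/NK cluster, and Cd244, Slamf7 and Fcgr3 in other clusters. The T/NK cluster was also highest for 3 of 3 granzyme inhibitors, 3 of 3 death ligands and cytokines and 2 of 2 further granzymes. It was highest for 0 of the 5 granule release genes. These last were Unc13d, Rab27a, Stx11, Stxbp2 and Lyst, which serve the traffic and release of granules in many blood cells. They had between 1.04% and 3.70% of their UMIs in T/NK cells, which held 3.38% of all UMIs in Col1a1fspKO and 1.93% in WT. Unc13d (32.7 CPM in T/NK cells, 25.0 outside) and Lyst (10.9 and 7.73) were higher in T/NK cells, on few UMIs. Rab27a (26.1 and 27.1), Stx11 (19.6 and 50.7) and Stxbp2 (24.0 and 54.4) were lower. Among granule proteins, 87.7% of the UMIs of Ctsw, the lymphocyte protease cathepsin W, were in T/NK cells. The share was 1.57% for Ctsc, the cathepsin that activates granzymes and neutrophil proteases alike, and 4.78% for Srgn, the granule proteoglycan serglycin. The level of Srgn was still higher in T/NK cells (453 CPM) than outside (247 CPM), while Ctsc was lower (58.8 against 101 CPM).

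There were 36 list genes with at least 20 UMIs in T/NK cells. Of them, 9 were at least 2-fold higher in NK-like than in Cd3-high cells of both libraries and 0 were lower. Among all 2556 genes tested, 6.42% were higher and 2.23% lower. Of the 9, 5 are NK markers used to name cells. Of the 26 that are not, 4 were higher, among them Serpinb6b, an inhibitor of granule proteases (3.70 and 5.46 times in Col1a1fspKO and WT), the receptor Cd244 (2.88 and 3.64 times) and Tyrobp, the DAP12 adaptor (9.38 and 2.36 times). Between genotypes, 12 of the 36 were past 1.5-fold higher in Col1a1fspKO T/NK cells and 3 were past 1.5-fold lower, where 16.6% and 8.18% of genes were. The chemokine genes Ccl3 (43 against 5 UMIs, 4.90 times WT, interval 1.94 to 15.8) and Ccl4 (54 against 10 UMIs, 3.07 times, interval 1.55 to 6.77) were among the higher ones. Gzmk, the granzyme K gene, had 23 UMIs in Col1a1fspKO and 0 in WT, which is at least 4.36-fold higher with 3 UMIs taken as the limit for WT. Ctsw was 1.76 times WT (1.18 to 2.69), and Id2, a transcription factor that NK cells need, 1.71 times (1.403 to 2.09). The T-bet gene Tbx21 had 27 against 8 UMIs (1.92 times, interval 0.849 to 4.89). The 3 lower genes were the receptors Klra4 (0.621 times, interval 0.334 to 1.16) and Cd244 (0.640 times, interval 0.308 to 1.34) and the adaptor Fcer1g (0.578 times, interval 0.453 to 0.737).

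Over the 16 groups of cells in the plot of levels by cluster, the genes whose pattern was most like the mean of the 8 were Klra7, Klre1, Sh2d1a, Ctsw, Klrc2, Il2rb, Txk, Eomes, Xcl1 and Klrc1. Their Pearson r of log2(CPM + 10) lay between 0.971 and 0.982 among 9718 genes ranked, over groups that share libraries and of which the T/NK pair carries most of the UMIs of these genes. Against the same mean, which includes each gene itself, r was highest for Ncr1 (0.978) and Gzma (0.971) and lowest for Nkg7 (0.852) and Klrd1 (0.891), the genes with a further site outside T/NK cells.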

How the data were processed

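Bone marrow sc-RNA-seq libraries of Col1a1fspKO and WT mice, 1 per genotype, were analysed. The authors deposited 1 table of raw UMI counts per library, made with Cell Ranger (version not given in the sources used here) on mm10. The submitters' processing notes also name Seurat 3.5.3. The values are counts per gene and cell of the cells the authors kept. A gene found in only 1 table counted as 0 UMIs for the other library, where it is called not listed. Limits of 200 to 7000 genes and 10% mitochondrial UMIs removed no cell. The libraries held 8647722 (Col1a1fspKO) and 8624469 (WT) UMIs, with at least 2540 and 2909 per cell.

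Counts were analysed with Seurat 5.3.0 (R 4.3.3), scanpy 1.11.5 and scipy 1.17.1 (Python 3.11.15). The libraries were merged without integration, log-normalized, and clustered on 27 principal components of 1971 variable genes (Louvain, resolution 0.8). T/NK cells were clustered again with 10 components. The 8 genes and the wider list, except NK markers that name cells, were left out of the variable genes. Clusters were named from marker lists, as "-like", by the highest mean z-score over clusters. Scrublet called 5 doublets in each library, which were kept. Levels are CPM of UMIs summed over cells with exact Poisson intervals, shares have exact Clopper-Pearson intervals, and ratios of CPM exact conditional binomial intervals. A library at 0 was given 3 UMIs for a lower bound. Shares were also taken after each cell was thinned to 2500 UMIs.

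Genes named are the 8 members, a wider list of 62 genes, and the 10 genes of most similar pattern. Values of 1 gene of the wider list are not reported here. The members and lists were chosen with earlier results of these data known. The interval code was tested on simulated counts. Alternatives were other resolutions, components, cell filters, doublet removal, scalings, a split by marker UMIs, thinning, and some added after the data were seen.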

Additional observations from a re-analysis of the deposited data

Results flagged for a closer look

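Gzma in Col1a1fspKO was 1.48 times WT in NK-like cells and 0.241 times WT in Cd3-high cells, so the ratios lay on opposite sides of 1. The counting intervals were 1.24 to 1.77 and 0.124 to 0.443. With 1 library per genotype the difference between these ratios was not tested. In Cd3-high cells the UMIs came from 3 of 33 Col1a1fspKO and 4 of 20 WT cells. Without the highest cell of each library the ratio was 2.60 in NK-like cells (2.03 to 3.37) and 0.386 in Cd3-high cells (0.115 to 1.17). The Cd3-high value rests on 2 WT cells that held 33 and 6 of the 43 WT UMIs and had no UMI of Cd3e or Cd3g. Over the 3 Cd3-bearing sub-clusters of the finer split, which leave them out, Gzma gave 15 UMIs against 4 for WT and the ratio was 2.19 (0.699 to 9.08), and the opposite direction was gone. Both alternatives were chosen after the data were seen. The outlier check needs groups of at least 4 samples and could not be run.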

How the results depend on the processing

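No paired analysis was possible because each genotype has 1 library. Of 57 summary values under an alternative, 42 moved by less than their counting interval, 15 moved by more and 0 reversed; reversed means that a value whose interval left out 0 on the log2 scale changed sign. Of 309 values for single genes, 279 stayed within it, 29 moved and 1 reversed. This one was Gzma in Cd3-high cells between genotypes, which went from -2.05 to 1.13 on the log2 scale over the 3 Cd3-bearing sub-clusters of the finer split, an alternative added after the data were seen. The difference in the T/NK share lay between 1.69 and 1.87 percentage points under all alternatives run. At resolution 0.4 the T/NK cells did not split, which gave no value for NK-like against Cd3-high cells.

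Values here are log2 ratios. Without Ccl5, an alternative added after the data were seen, the summed genes over all cells in Col1a1fspKO against WT went from 1.08 to 0.72, and in T/NK cells from 0.44 to 0.30. Outside T/NK cells the sum went from 0.42 to 0.19 without 6 cells that carried at least 5 UMIs of T and NK markers, also added later, and Ccl5 there to 2.01. The summed genes in NK-like against Cd3-high cells were 0.06 in Col1a1fspKO, with an interval that held 0. They were 0.15 at resolution 1.2, -0.028 with 15 components (a change of sign), 0.19 with all variable genes, 0.18 with a shared UMI minimum, 1.57 without Ccl5 and 0.19 with the largest of 5 sub-clusters set against the next 3. In WT they were 0.49, and 0.76 with 15 components, 0.95 with all variable genes, 0.66 without called doublets, 0.77 as a mean over single cells, 0.70 thinned and 0.95 without Ccl5. With cells split by marker UMIs, Gzmb in WT changed sign to -1.97 and in Col1a1fspKO came to 0.01. Gzmb over all cells came to -0.38 as a mean over single cells. Nkg7 in WT NK-like against Cd3-high cells came to -0.34 at resolution 1.2 and to -0.28 with the marker split. Cd3d, one of the genes of that split, had a UMI in 570 cells outside T/NK. The cause of these shifts was not tested. The depth, 89 T/NK cells, limits what Prf1, Gzmb and the Cd3-high Gzma values can show.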
